A study of Mus musculus with 6 samples.

Results

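The genes described here are 10 genes of leukotriene synthesis and of the peptidases that trim leukotrienes: Alox5, Alox5ap, Alox15, Lta4h, Ltc4s, Ggt1, Ggt5, Dpep1, Dpep2 and Dpep3. They were taken by symbol from probe sets whose platform annotation names exactly 1 gene, and the set was chosen by how some of them differed between the groups below, so their values are given as a description without a test. Of the 10, 9 had a probe set of their own among 19938 genes. Dpep2 had 2, which makes 10 probe sets of 21789 with a single symbol. Ggt1 had none under its name and was not analysed here.

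The samples were 6 Affymetrix arrays of URE cells, a mouse leukaemia line. On 3 arrays the cells carried a lentiviral hairpin against luciferase (shControl) and on 3 a hairpin against Hlx (shHLX), which encodes a homeobox transcription factor. In both groups the vector was pSIH1-H1-copGFP, which also encodes a green fluorescent protein, cells were infected in medium with IL-3, IL-6 and SCF, and GFP-positive cells were sorted. The study set out to learn what Hlx does in blood cell differentiation and tumour formation. It used 1 line and names 1 hairpin target per group, and the labels do not say whether replicates were separate cultures or transductions. Errors and p-values therefore measure the scatter among these 6 arrays, part of which could be technical.

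Values are log2 signals of probe sets, so a difference of 1 is a doubling of signal, and no probe set's level was set against another's, except to pick the brightest probe set of a gene or of a marker list. Array medians ran from 7.02 to 7.10. The Hlx probe set itself gave 10.21, 10.12 and 10.20 on the shControl arrays and 10.08, 10.06 and 10.17 on the shHLX arrays (difference -0.07, limma adjusted p = 0.479), so the knockdown that the labels name is not seen in it and the direction of each comparison rests on the labels. On the second principal component the arrays shControl 1 (9.53) and shHLX 3 (9.10) stood apart from the remaining 4, and values without those arrays are given beside the members below. Of the marker genes of the myeloid progenitor lineage, Elane (14.00 on shControl, 13.95 on shHLX) and Spi1 (10.34 on both) were measured in both groups at like signal, and Mpo fell by 1.46 on the log2 scale (limma adjusted p = 0.00151, and 0.0558 without variance moderation). Others of that list also differed: Cd33 and Itgam were higher and Kit was lower on the shHLX arrays, as given below. In bulk RNA such as this, fewer cells of a type and less RNA per cell cannot be told apart.

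Leukotrienes are lipid mediators that leukocytes make from arachidonic acid released from membranes. The lipoxygenase encoded by Alox5 works with the membrane protein FLAP, encoded by Alox5ap, to make the unstable leukotriene A4. From there the pathway forks: Lta4h yields leukotriene B4, a neutrophil attractant, while Ltc4s joins glutathione to the lipid to give leukotriene C4. Surface enzymes then trim the glutathione part, first gamma-glutamyl transferases (Ggt1, Ggt5), which give leukotriene D4, and then membrane dipeptidases (Dpep1, Dpep2), which give leukotriene E4. Dpep3 is a relative of these dipeptidases known mostly from testis, and Alox15 is a lipoxygenase of macrophages and eosinophils that oxidises arachidonic acid at other positions.

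The largest differences among the members were in dipeptidase genes. The signal of Dpep2 was 2.0-fold higher on the shHLX arrays and that of its chromosomal neighbour Dpep3 1.42-fold higher. Alox5 was 1.24-fold higher, and the other 6 measured genes differed by at most 1.12-fold in either direction. In the fit over all genes (limma, adjusted p under 0.05), Dpep2 and Dpep3 were called, both higher, so 2 of the 9 measured members were called against 6.18% of all genes (3.75% higher and 2.43% lower). For 6 of the 9 members all arrays of 1 group lay above all arrays of the other, against 26.2% of all genes. That member count was 5 after a second quantile normalization and 4 with arrays centred on their medians. Since the members were picked with this contrast known, nothing is read from these counts.

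Dpep2, whose product removes glycine from leukotriene D4, gave 9.87, 9.67 and 9.82 on the shControl arrays and 10.84, 10.73 and 10.78 on the shHLX arrays by its brighter probe set (10581434, Entrez gene 319446). Every shHLX array was above every shControl array, with a gap wider than the range within either group. The means were 9.79 ± 0.11 (SD, n = 3) and 10.79 ± 0.055 (SD, n = 3), a difference of 1.00 (95% confidence interval 0.85 to 1.14). The other Dpep2 probe set (10581448) gave 8.20, 7.92 and 8.04 against 8.94, 8.75 and 8.83, a difference of 0.79 (0.60 to 0.98). Its groups did not overlap either, and within each group the same array was highest and the same array lowest in both probe sets. The 2 probe sets are listed with transcript accessions in common, so they are not independent readings. Leaving out any 1 array moved the Dpep2 difference only between 0.94 and 1.04, and it was 1.04 without shControl 1 and shHLX 3.

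Dpep3 gave 6.69, 6.61 and 6.79 on the shControl arrays and 7.21, 7.15 and 7.26 on the shHLX arrays (probe set 10581421, Entrez gene 71854). All 3 shHLX values lay above all 3 shControl values. The means of 6.70 ± 0.089 (SD, n = 3) and 7.20 ± 0.055 (SD, n = 3) differed by 0.50 (95% confidence interval 0.37 to 0.64), and the difference was 0.47 without shControl 1 and shHLX 3. Dpep1, the dipeptidase best known from kidney, went the other way and by little: 6.35, 6.53 and 6.45 with the control hairpin and 6.24, 6.33 and 6.26 on the shHLX arrays. The highest shHLX value (6.33) was just under the lowest shControl value (6.35), and the difference was -0.17 (-0.30 to -0.03), or -0.20 without shControl 1 and shHLX 3. The members of the dipeptidase family therefore did not share a direction under any of the 14 alternative settings tried, Dpep1 being lower in each and the other two higher.

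**Figure D1:**
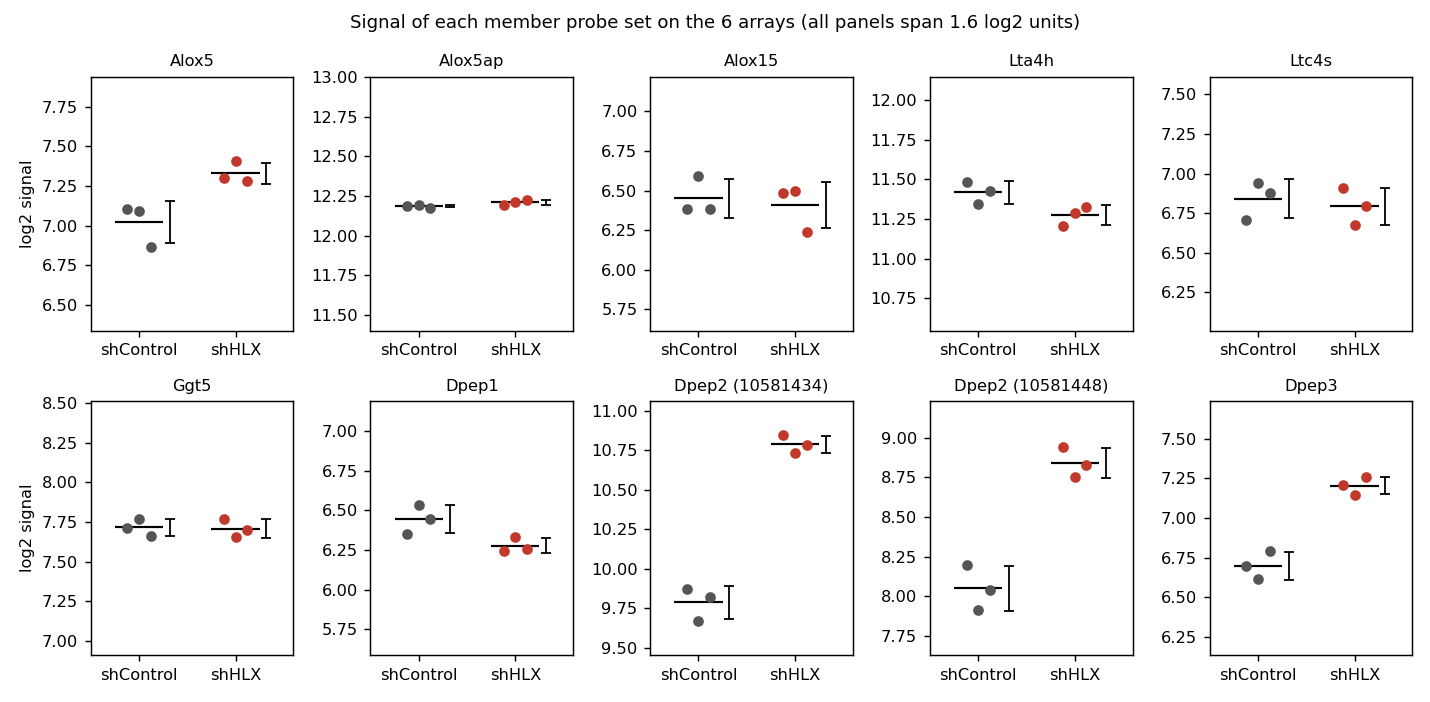
Log2 signal (vertical axis) of each member probe set on the 3 shControl arrays (grey) and the 3 shHLX arrays (red), with the group mean as a line and the SD as a bar beside it. All panels span the same range in log2 units, and the shHLX points of Dpep2 (both probe sets) and Dpep3 sit well above the shControl points while Alox5ap, Ggt5, Ltc4s and Alox15 lie level.

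Dpep3 and Dpep2 are next to each other on mouse chromosome 8 in RefSeq (GRCm38.p6), and their gene spans do not overlap there (0 bases). The 9 other genes within 5 protein-coding places of Dpep2 were therefore looked at, by position and outside the rule by which genes were named. Of these 9, 2 were called, both higher and both directly beyond Dpep2, against 6.18% of all genes (3.75% higher). As the place was chosen with the Dpep2 and Dpep3 differences known, nothing is read from this count. Dus2, which encodes a tRNA dihydrouridine synthase, rose from 9.52 ± 0.060 (SD, n = 3) to 9.85 ± 0.050 (SD, n = 3), a difference of 0.33 (limma adjusted p = 0.00745). Ddx28, which encodes a mitochondrial RNA helicase, rose from 7.96 ± 0.092 (SD, n = 3) to 8.22 ± 0.044 (SD, n = 3), a difference of 0.26 (limma adjusted p = 0.0402). The Ddx28 call was lost without any 1 array except shControl 3 (adjusted p 0.0679 to 0.134), while that of Dus2 was kept (up to 0.0445). The RefSeq spans of Ddx28 and Dus2 overlap by 9 bases. On the side of Dpep3, the potassium chloride cotransporter gene Slc12a4 differed by 0.18 (limma adjusted p = 0.0809). Like Slc12a4, the genes Lcat (-0.04), Psmb10 (-0.01) and Ctrl (-0.04) on that side were not called. Past Dus2, on the side of Dpep2, Nfatc3 (0.04), Esrp2 (-0.14) and Pla2g15 (-0.04) were not called either.

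**Figure D2:**
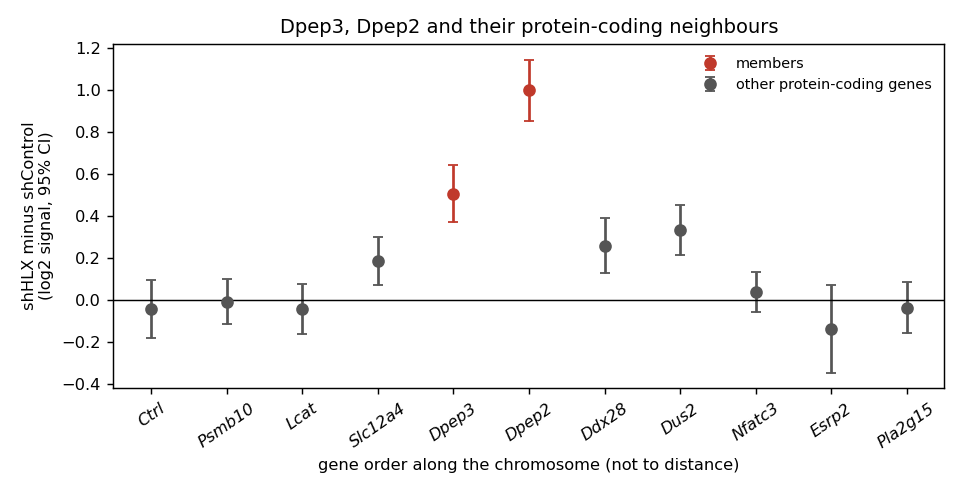
Difference in log2 signal, shHLX minus shControl, with limma's 95% confidence interval (vertical axis) for Dpep3, Dpep2 (red) and the 9 protein-coding genes nearest to Dpep2 (grey), in chromosomal order and not to distance. The difference is largest for Dpep2 (1.00), and is 0.50 for Dpep3, 0.26 for Ddx28 and 0.33 for Dus2, while the other 7 lie between -0.14 and 0.18.

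Promoter sequence was looked up for the members, in RefSeq windows of 250 bases before the start (build GRCm38.p6), and 5 of the 9 measured members had an entry (Alox5, Dpep1, Dpep3, Lta4h and Ltc4s). Dpep2, Alox5ap, Alox15 and Ggt5 had none. The windows of Dpep3 and Alox5 are shown because these are the members with higher signal on the shHLX arrays that have an entry. The first is chr8:105979420-105979669 and the second chr6:116461179-116461428, both on the minus strand, written 5′ to 3′. Capitals mark matches on either strand to the homeodomain core TAAT, the purine-rich core GAGGAA bound by PU.1, the GC box GGGCGG and the RUNX core TGTGGT.
Dpep3: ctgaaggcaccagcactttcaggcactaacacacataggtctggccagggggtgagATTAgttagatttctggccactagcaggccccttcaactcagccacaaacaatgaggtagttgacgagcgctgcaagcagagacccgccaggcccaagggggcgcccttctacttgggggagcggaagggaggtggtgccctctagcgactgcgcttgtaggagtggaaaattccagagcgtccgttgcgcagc
Alox5: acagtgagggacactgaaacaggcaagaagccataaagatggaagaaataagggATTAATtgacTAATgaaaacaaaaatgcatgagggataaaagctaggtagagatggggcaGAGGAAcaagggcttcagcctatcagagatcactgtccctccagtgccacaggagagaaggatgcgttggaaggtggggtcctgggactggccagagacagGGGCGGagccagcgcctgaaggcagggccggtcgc

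The Dpep3 window holds 1 match to TAAT, 194 bases before the start, and no match to the other 3 motifs. The Alox5 window holds 3 matches to TAAT (at 196, 194 and 186 bases before the start, of which the first and second overlap each other), 1 to GAGGAA (136 bases before) and 1 to the GC box (35 bases before). Over 32851 RefSeq promoter windows of the same length, 54.9% hold TAAT on either strand, 23.3% GAGGAA, 32.7% GGGCGG and 14.0% TGTGGT. Among the 5 members with an entry, TAAT was also in the Lta4h window and in neither the Dpep1 nor the Ltc4s window. GAGGAA was also in the Lta4h window (126 bases before the start). The RUNX core was in the Dpep1 window (182 bases before) and the Ltc4s window (156 bases before). These short matches are a description of the letters only, as the data hold no measurement of binding.

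Among the enzymes that make leukotriene A4, Alox5 gave 7.10, 7.09 and 6.87 on the shControl arrays and 7.30, 7.41 and 7.28 on the shHLX arrays. The groups did not overlap, with shControl 3 the lowest of all. The means were 7.02 ± 0.13 (SD, n = 3) and 7.33 ± 0.068 (SD, n = 3), a difference of 0.31 (95% confidence interval 0.14 to 0.48). It lay just outside the call of the fit over all genes, and was inside it under 6 of the 14 alternative settings. Without shControl 3 the difference was 0.23, and without shControl 1 and shHLX 3 it was 0.37. Alox5ap, the partner of this enzyme, gave 12.19, 12.19 and 12.18 against 12.19, 12.21 and 12.22. The groups met at 2 decimals, and the difference of 0.02 (-0.07 to 0.12) turned to -0.01 after a second quantile normalization and stayed at 0.02 without shControl 1 and shHLX 3. Alox15 ran from 6.24 to 6.59 over all 6 arrays, its groups overlapped, and its difference of -0.04 (-0.25 to 0.16) turned to 0.0054 without shControl 1 and shHLX 3.

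At the fork of the pathway, Lta4h gave 11.49, 11.34 and 11.43 with the control hairpin and 11.21, 11.29 and 11.33 on the shHLX arrays. All 3 shHLX values were below the shControl values, though shHLX 3 (11.33) and shControl 2 (11.34) nearly met. Its means of 11.42 ± 0.072 (SD, n = 3) and 11.27 ± 0.062 (SD, n = 3) differed by -0.15 (-0.27 to -0.02), or 90.4% of the control signal, and by -0.14 without shControl 1 and shHLX 3. Ltc4s, which opens the branch that the dipeptidases close, ran from 6.68 to 6.94 with overlapping groups and a difference of -0.05 (-0.23 to 0.14), which was -0.12 without those arrays. Ggt5, the transferase between Ltc4s and the dipeptidases, ran from 7.65 to 7.77 and differed by -0.01 (-0.13 to 0.11), and by -0.0053 without them. All 9 measured members lay above the 25th percentile of mean signal, but no detection values were used, so whether the dimmer ones lie above background is unknown.

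**Figure D3:**
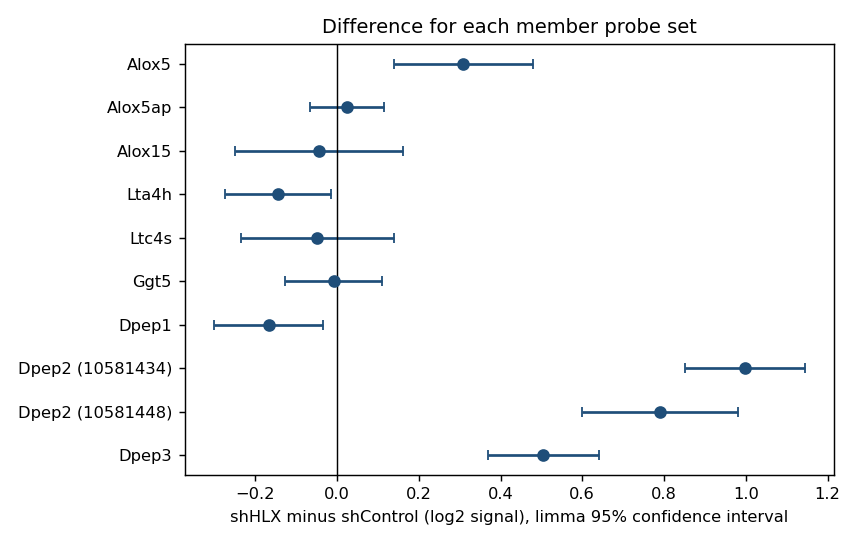
Difference in log2 signal, shHLX minus shControl, for each of the 10 member probe sets (points), with limma's 95% confidence interval from the fit over all 21789 single-symbol probe sets. The Dpep2 probe sets lie at 1.00 and 0.79, Dpep3 at 0.50 and Alox5 at 0.31, and the remaining 6 lie between -0.17 and 0.02.

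The profile of Dpep2 over the 6 arrays, centred on the shControl mean, was closest to those of Rgs2, Adam8, Dusp3, Cd200r1 and Ghr, in that order. Rgs2, a regulator of G protein signalling, lay at a mean absolute distance of 0.016 log2 units per array and differed by 0.99 between the groups. Adam8, a membrane metalloprotease of leukocytes, lay at 0.041 with a difference of 0.94. The phosphatase gene Dusp3 (distance 0.055), the CD200 receptor gene Cd200r1 (0.062) and the growth hormone receptor gene Ghr (0.073) followed, with differences of 1.01, 0.97 and 0.89. Closeness here is largely set by a like step between the groups and has no test.

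The genes around the members were taken as 8 lists, from arachidonate release to glutathione turnover, chosen with earlier results of these arrays known. Of 121 listed genes 112 were measured, and 6 were called higher and 4 lower. Their median difference was -0.001, against -0.01 over all 19938 genes.

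Arachidonate supply had the largest of these differences. Of 21 measured genes of arachidonate release and reacylation (24 listed), 1 was called higher and 2 lower, with a median difference of -0.02. Mgll, the lipase that frees arachidonate or other fatty acids from monoacylglycerol, gave 8.45, 8.44 and 8.53 on shControl and 9.56, 9.61 and 9.54 on shHLX arrays. It rose 2.14-fold (difference 1.10, SE 0.046, limma adjusted p = 1.1e-05), with no overlap between the groups. Pla2g5, a secreted phospholipase, fell by 0.49 on the log2 scale (limma adjusted p = 0.00551), and Daglb, the diacylglycerol lipase upstream of Mgll, fell by 0.42 (limma adjusted p = 0.00388). The Pla2g5 call was lost in a test without variance moderation (adjusted p = 0.068) and kept with any 1 array left out (0.0115 to 0.0227). Another gene of this list, Pla2g4a, was higher by 0.20, and its groups did not overlap. It did not pass in the main fit (limma adjusted p = 0.0682) but was called under 2 alternative settings. Pla2g4a was named after its values were seen.

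Of 16 genes for export, inactivation and related transferases, 2 were called higher and 1 lower (median difference 0.05). Mgst1, a microsomal glutathione transferase related to Ltc4s, gave 11.14 ± 0.12 (SD, n = 3) on shControl and 11.75 ± 0.054 (SD, n = 3) on shHLX arrays, a 1.53-fold rise (limma adjusted p = 0.00136). Cyp4f16, of the cytochrome family whose members hydroxylate leukotriene B4, rose 1.33-fold (limma adjusted p = 0.00389). Its relative Cyp4f13 fell by 0.22 (limma adjusted p = 0.0321), a call lost without any 1 array (adjusted p 0.0789 to 0.0978). No gene was called among the 9 of other lipoxygenases and partners of Alox5 (differences from -0.30 to 0.04), among the 19 measured of other dipeptidases and aminopeptidases (-0.19 to 0.14), or among the 7 measured receptors for leukotrienes and related lipids (-0.14 to 0.07). In that order, 1, 3 and 0 of their genes had an unadjusted limma p under 0.05, and without variance moderation 0, 1 (Cndp2, a cytosolic dipeptidase, difference 0.12) and 0 were called. Under at least 1 of the 14 alternative settings 1, 3 and 0 were called, namely Cotl1, whose product binds 5-lipoxygenase (-0.30, called under 5 settings), Dpp7 (-0.19, under 3), Cndp2 (under 2) and Npepps (0.14, under 1), all 4 chosen after their values were seen.

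Those receptors included both receptors for the cysteinyl leukotrienes C4, D4 and E4. Cysltr1 ran from 4.50 to 4.68 and differed by -0.05 (limma adjusted p = 0.689), and Cysltr2 ran from 3.87 to 4.10 and differed by 0.07 (limma adjusted p = 0.555). Neither lay above the 25th percentile of mean signal, and whether they lie above background is unknown. The leukotriene B4 receptor gene Ltb4r1 differed by -0.07 (limma adjusted p = 0.504), with values from 6.27 to 6.44. Ltb4r2 had no probe set of its own and was not analysed here.

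In the parallel cyclooxygenase branch, 1 of 11 measured enzymes was called higher and 1 lower (median difference -0.02). Ptgs2, the inducible cyclooxygenase, gave 7.29, 7.19 and 7.17 on shControl and 7.85, 7.83 and 7.85 on shHLX arrays. It rose 1.54-fold (limma adjusted p = 0.000202), and the groups were far apart. Hpgds, a prostaglandin D synthase, fell by 0.22 (limma adjusted p = 0.0402), a call lost without any 1 array (adjusted p 0.0697 to 0.13). Of 9 prostanoid receptors, the prostaglandin E receptor gene Ptger2 rose 1.24-fold (limma adjusted p = 0.00423) and 8 were not called. Another of these, Ptger3, gave 6.32, 6.24 and 6.41 against 6.72, 6.64 and 7.17, a difference of 0.52. Ptger3 did not pass in the main fit (limma adjusted p = 0.0603) but was called under 6 alternative settings. It was named after its values were seen. Of 20 glutathione genes, the cystine transporter gene Slc7a11 was called (1.29-fold higher, limma adjusted p = 0.00604), and 19 were not (median difference 0.04). With Slc7a11 included, 6 of the 20 had an unadjusted limma p under 0.05. Likewise 2 were called without variance moderation, and 6 under at least 1 alternative setting.

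**Figure D4:**
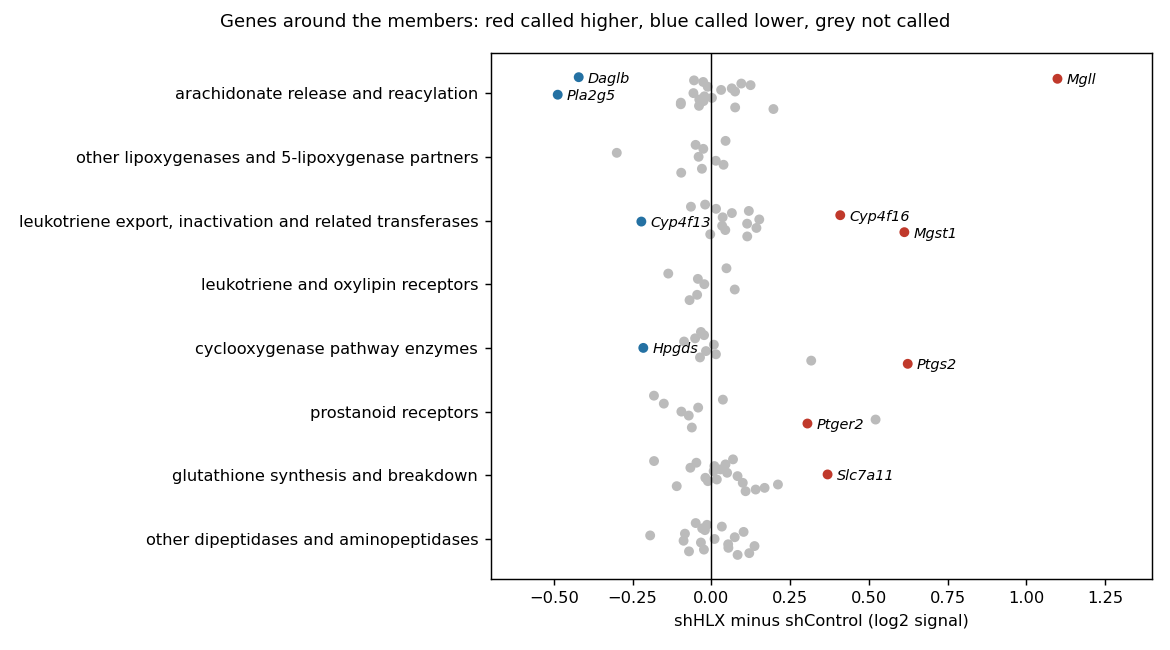
Difference in log2 signal, shHLX minus shControl (horizontal axis), for each measured gene of the 8 lists around the members (rows; the height of a point within a row has no meaning). Red points were called higher and blue points lower (limma, adjusted p under 0.05 over all genes), and grey points were not called; Mgll at 1.10 is the farthest from 0.

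Markers of other leukocytes that make leukotrienes were read alongside. None of 12 mast cell and basophil, 7 measured eosinophil and 12 macrophage genes was called by limma (2, 1 and 0 at an unadjusted p under 0.05, and 0 in each list without variance moderation). Under at least 1 alternative setting 2, 0 and 0 were called: Gata2, a transcription factor of progenitors and mast cells, differed by -0.33 and was called under 5 settings, and Ms4a2, a chain of the IgE receptor, differed by -0.25 and was called under 1. The probe set with the highest signal was that of the basophil protease gene Mcpt8 in the mast cell and basophil list (9.66 ± 0.062 on shControl, 9.58 ± 0.099 on shHLX, SD, n = 3 each), Siglecf in the eosinophil list (6.99 on both) and Cd68 in the macrophage list (9.17 ± 0.057 and 9.16 ± 0.028, SD, n = 3 each). The list means below average over such unlike probe sets. The mean signal of the mast cell and basophil list was 6.06 to 6.17 on shControl and 5.97 to 6.11 on shHLX arrays, that of the eosinophil list 6.02 to 6.08 and 5.95 to 6.05, and that of the macrophage list 6.17 to 6.28 and 6.19 to 6.30. Of 11 measured genes of mature neutrophils, Cxcr2 rose (0.20, limma adjusted p = 0.0224, lost without any 1 array at 0.0587 to 0.101) and S100a8 fell by 1.09 (limma adjusted p = 0.000254), with list means of 6.18 to 6.27 and 6.09 to 6.17. None of 9 measured lymphoid genes was called by limma, 1 (Nkg7) having an unadjusted p under 0.05 and being called under 2 alternative settings, and 0 being called without variance moderation (6.11 to 6.22 and 6.04 to 6.16). Tfrc rose (0.36, limma adjusted p = 0.00585) among 7 measured erythroid and megakaryocyte genes (7.02 to 7.06 and 6.95 to 7.07), and the endothelial cadherin gene Cdh5 fell by 2.68 (limma adjusted p = 6.66e-07) among 10 stromal, epithelial and endothelial genes (7.10 to 7.19 and 6.66 to 6.84). In the myeloid progenitor list of 13, the receptor genes Cd33 (2.14, limma adjusted p = 4.64e-05) and Itgam (0.75, limma adjusted p = 0.000615) rose, and Mpo and Kit fell, the latter by 0.73 (limma adjusted p = 6.37e-05). The part of these shifts in the Dpep2 and Dpep3 differences was not tested.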

How the data were processed

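Per the labels' protocols, cDNA was amplified from 10 ng of RNA (Nugen Ovation Pico) and labelled for Affymetrix arrays. The authors deposited log2 signals per probe set, 1 column per array, made with RMA (background correction, quantile normalization, summary of probes) and Affymetrix Power Tools 1.178, per the submitters' processing notes. The build behind the probe sets is not given in the sources. RMA makes the arrays' distributions alike and shrinks differences of dim probe sets.

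Of 35556 probe sets, 21789 had 1 gene symbol in the platform annotation. A gene with several took the one with the highest mean, giving 19938 genes, all of which were tested. The comparison used limma 3.58.1 under R 4.3.3 (lmFit and eBayes, no covariates, two-sided, Benjamini-Hochberg over all genes, threshold 0.05). The code was tested on simulated data. The members, lists and alternatives were chosen with earlier results of these data known. Genes were named by a rule: all members, up to 4 called genes per list with the smallest p, the leukotriene receptors, marker genes where called or, where named otherwise, the highest of their list, and the 5 profiles closest to the member with the largest difference. Spi1, the neighbours of Dpep2, Ptger3, and some genes called only under an alternative (Pla2g4a, Cndp2, Cotl1, Dpp7, Npepps, Gata2, Ms4a2, Nkg7) were added outside it. Not every gene called only under an alternative is named. Alternatives were other scalings, a signal filter, other variance models, the mean of probe sets, the replicate block and leaving out arrays. Figures were drawn with matplotlib 3.10.9.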

Additional observations from a re-analysis of the deposited data

How the results depend on the processing

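Dpep2 and Dpep3 were called, and higher, under all 14 alternative settings, of which 13 were planned and 1 (both arrays set apart by the second principal component left out) was chosen after seeing the data. The members were picked with this contrast known, and every setting reuses the same arrays. Nothing is therefore read from the members' calls here. The count of members called rose from 2 to 4 when the variance model had an intensity trend, which added Alox5 and Lta4h. Calls among the genes of the surrounding lists rose from 10 to 20 with that trend, and to 16 among genes above the 25th percentile of mean signal, where 14953 genes were tested. Hpgds and Cxcr2, called in the main fit, did not pass that signal filter. Over all genes the count of 1233 was 2261 with the trend, 698 to 901 with 1 array left out (806 without shControl 2, 698 without shControl 3, 766 without shHLX 1) and 741 without shControl 1 and shHLX 3. Same-numbered arrays did not deviate together (correlations -0.17, 0.13 and -0.15), so the numbers were not taken as pairs. With the replicate block 800 genes were called, and 3 members, Alox5 being the added one. Apart from the settings named here, the cause of these shifts was not tested. With 3 arrays a group, the number of arrays limits the precision.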
